A study of Mus musculus with 6 samples.

Results

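Short-term haematopoietic stem cells (ST-HSCs) lacking ING4 were compared with wild-type (WT) ST-HSCs by bulk RNA-seq of sorted mouse bone marrow. The comparison rested on 2 of 6 libraries, 1 ING4-/- ST-HSC library and 1 WT ST-HSC library, with LT-HSC and MPP pairs of the same genotypes as context. Of 49315 genes in the files, 12031 had 10 or more counts in both ST-HSC libraries, and 5744 of these were kept because the WT count was also at least 3 times the background described below. WT mice were C57BL/6 controls and ING4-/- mice came from a separate constitutive knockout colony, so that every cell of the animal, the niche included, lacked ING4. For each genotype, marrow of 8 to 10 mice was pooled and lineage depleted, and ST-HSCs were sorted as LSK CD48- CD34+ CD150+ cells. WT control mice were 8 to 12 weeks old per the study's methods, which give the same age for ING4-/- mice treated with fluorouracil. The age of the mice pooled for RNA-seq is not stated separately for either genotype in the sources used here. With 1 pooled library for each genotype, ST-HSC ratios below are descriptions without a test, and the errors given are counting standard errors (SE), which hold no animal-to-animal spread.

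ST-HSCs stand between the self-renewing LT-HSCs and the MPPs, and repopulate a host for a limited time. ING4 is a chromatin reader with a PHD finger that binds methylated histone tails and belongs to an acetyltransferase complex built around HBO1 (Kat7). It has also been tied to NF-kappaB, Myc and p53 activity, and genes of these pathways, of the cell cycle and of blood lineages are described in turn.

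The ST-HSC pair was unequal in depth and background. The WT library held 8047002 counts and the ING4-/- library 37811937. In WT ST-HSCs, 1429 olfactory and other chemosensory receptor genes, which blood cells are not known to use, carried 22.7 counts per kb of exon, against 0.0694 in ING4-/- ST-HSCs. The WT LT-HSC and WT MPP libraries carried 22.4 and 18.1 counts per kb, and no ING4-/- library exceeded 0.0853. This background, taken as proportional to exon length, made up 33.1% of the WT ST-HSC counts and 0.0215% of the ING4-/- counts, and it was subtracted before scaling to CPM, counts relative to a common library size. It separated every WT from every ING4-/- library, so genotype and library background cannot be told apart. A gene therefore needed far more reads to be kept in WT than in ING4-/- cells, and the kept genes were selected partly for being high in WT.

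Among the kept genes, ING4-/- ST-HSCs had more genes with lower than with higher levels. The level of 497 genes (8.65%) was at least 2-fold higher than in WT ST-HSCs, that of 1239 genes (21.6%) was at least 2-fold lower, and 4008 lay within 2-fold. This balance depended on the processing. With subtraction but no minimum over the background, 3465 genes were higher and 2527 lower. With neither subtraction nor minimum, 1858 were higher and 3652 lower. Over the 5357 kept protein-coding genes, scaled on coding genes alone, 518 were higher and 961 lower, a smaller share of lower genes. The shares of all kept genes, 8.65% and 21.6%, are the measure for each gene list below. List medians in LT-HSCs and MPPs are over the members kept there. The median log2 ratio of ING4-/- over WT was -0.06, with quartiles of -0.83 and 0.49. The typical counting SE of a ratio was 0.08 on the log2 scale, so that counting error alone was small beside these differences. In bulk samples, fewer cells of a type and less RNA per cell cannot be told apart. Ratios also followed exon length in ST-HSCs: protein-coding genes of 500 to 1000 bases had a median ratio of 0.73, those of 2000 to 4000 bases 0.05, and those over 8000 bases -0.81. LT-HSCs (0.79, 0.06 and -0.86) and MPPs (0.86, -0.01 and -0.81) followed the same course, and its part in the results was not tested beyond the length-adjusted medians given below.

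**Figure D1:**
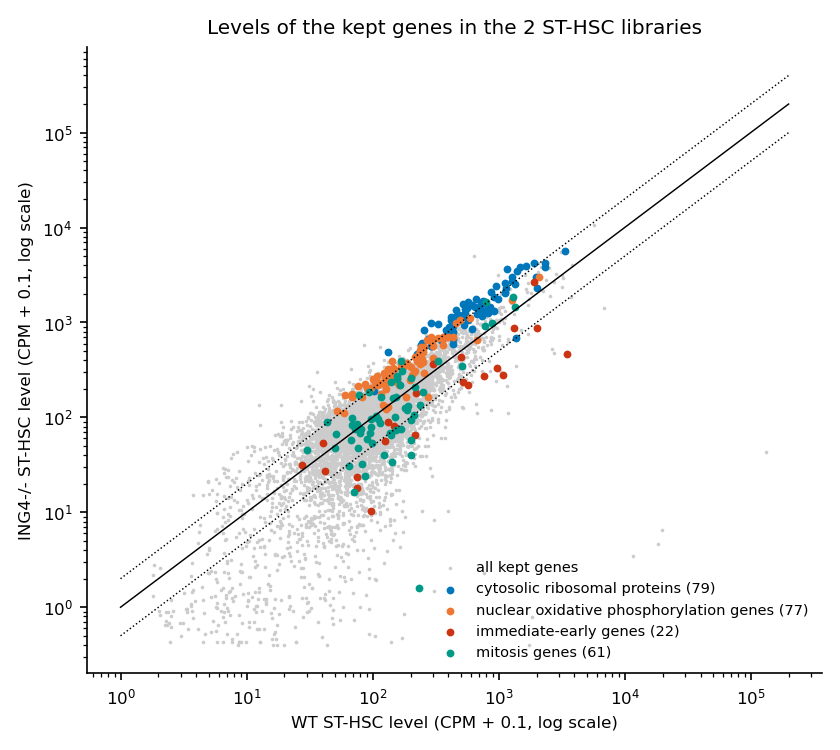
Level of each kept gene in WT (x axis) and ING4-/- (y axis) ST-HSCs, in CPM after background subtraction, on log scales. The solid line marks equal levels and the dotted lines 2-fold differences. The 79 ribosomal protein genes lie mostly along or above the upper dotted line, whereas several immediate-early genes lie below the lower one.

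Ing4 itself had 162 counts in WT and 24 in ING4-/- ST-HSCs. The WT count was only 1.34 times the background predicted for its 5320 exonic bases, so Ing4 was not kept and no level could be set for WT. In the deeper ING4-/- libraries Ing4 counts were 24 for ST-HSCs, 0 for LT-HSCs and 76 for MPPs, where the WT libraries had 162, 247 and 247. The 24 counts in ST-HSCs amounted to 0.719 CPM. Which exons the allele lacks is not given in the sources used here, so these counts do not show whether part of the transcript remained.

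Genes for cytosolic ribosomal proteins, the protein parts of the translating ribosome, were higher in ING4-/- ST-HSCs, but less so than in the other populations. All 79 were kept, 49 were at least 2-fold higher and 1 was at least 2-fold lower, beside 8.65% and 21.6% of all kept genes. Their summed level was 61481 CPM in WT and 125340 CPM in ING4-/- ST-HSCs. Rplp0, of the large subunit stalk, had 10075 counts (2335 CPM) in WT and 139955 counts (4258 CPM) in ING4-/- ST-HSCs, a log2 ratio of 0.87 ± 0.01. Rps21, of the small subunit, had the highest ratio, 1.88 ± 0.06 (592 and 16193 counts). Rps3a1 was the exception at -1.01 ± 0.02 (5920 and 22320 counts). Many of these genes have near-identical processed copies in the genome, so their counts are uncertain.

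The median ribosomal protein ratio was 1.10 in ST-HSCs, 1.55 in LT-HSCs and 1.40 in MPPs. For 73 of the 79 genes the ST-HSC ratio was the lowest of the 3, and for 1 it was the highest. WT ST-HSCs held more ribosomal protein RNA than WT LT-HSCs (52007 CPM) and WT MPPs (53198 CPM), whereas ING4-/- ST-HSCs held less than ING4-/- LT-HSCs (148633 CPM) and MPPs (129779 CPM). The ST-HSC median remained the lowest under all 16 other processing settings, where it ran from 0.90 to 1.66, and it was 0.90 once the length trend was removed. ST-HSCs thus held the most ribosomal protein RNA of the 3 WT libraries and the least of the 3 ING4-/- libraries.

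**Figure D2:**
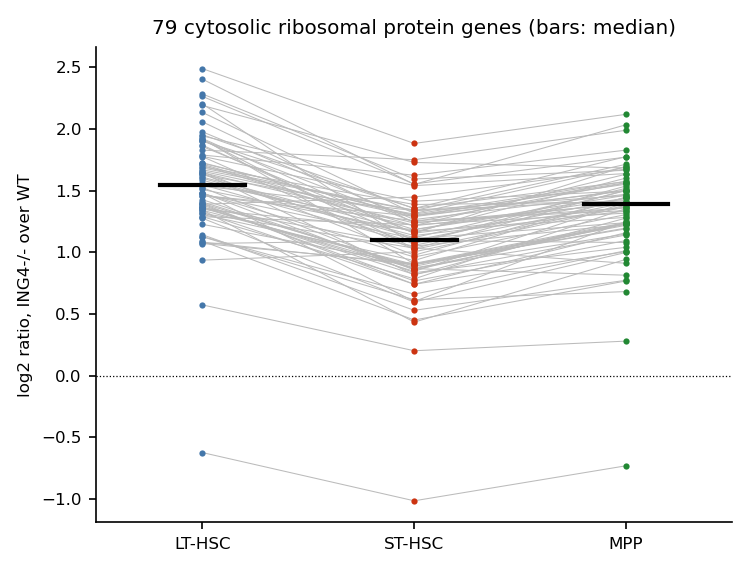
Log2 ratio of ING4-/- over WT for each of 79 cytosolic ribosomal protein genes (points joined by grey lines) in the 3 populations, 1 library per genotype and population. Black bars mark medians of 1.55, 1.10 and 1.40, and most lines dip at ST-HSCs.

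Nuclear genes of oxidative phosphorylation, which encode respiratory chain and ATP synthase subunits, were also higher, to a like extent in all 3 populations. Of 77 genes, all kept, 34 were at least 2-fold higher and 0 were 2-fold lower. The median ratio was 0.97 in ST-HSCs, 0.78 in LT-HSCs and 0.96 in MPPs, and 0.76 in ST-HSCs without the length trend. Atp5k, a small ATP synthase subunit, had the highest ratio (1.53 ± 0.09, 272 and 5700 counts). Uqcrc1, a core subunit of complex III, had 2657 and 36979 counts, a ratio of 0.92 ± 0.03 in ST-HSCs against 0.29 in LT-HSCs and 0.34 in MPPs. Ndufs1, the large complex I subunit, was the lowest at -0.74 ± 0.05. In contrast, glycolysis genes differed little: 17 of 20 were kept and 0 lay beyond 2-fold, with a median of -0.07. Ldha, which makes lactate from pyruvate, was the highest of them at 0.98 ± 0.02 (7038 and 104989 counts), against 0.49 in LT-HSCs and 0.50 in MPPs.

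Immediate-early genes, the transcription factors and feedback regulators switched on within minutes of growth or stress signals, had the lowest median of the 20 gene lists in ST-HSCs. Of 40 genes, 22 were kept, 12 were at least 2-fold lower and 0 were 2-fold higher, with a median ratio of -1.15 (-1.10 without the length trend). Jun, the central AP-1 subunit, had 15049 counts (3484 CPM) in WT and 15193 counts (462 CPM) in ING4-/- ST-HSCs, a ratio of -2.91 ± 0.02, or 7.54-fold lower. Fos, its partner, had 8782 and 28846 counts (2030 and 878 CPM, ratio -1.21 ± 0.02). Junb had 2507 and 7152 counts (571 and 218 CPM, ratio -1.39 ± 0.03). These AP-1 genes were among the most abundant of the list, and their WT counts were 207, 164 and 47.9 times the background.

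The other lower members had related roles. Egr1, a zinc-finger factor linked to stem cell quiescence, was 3.83-fold lower (4750 and 9267 counts). Nr4a1, an orphan nuclear receptor, was 3.28-fold lower (985 and 2162 counts). Zfp36, which destabilises AU-rich messages, and Ier2 had ratios of -1.48 and -1.55. Mcl1, an anti-apoptotic BCL-2 family member required by stem cells, was 4.22-fold lower (401 and 583 counts), and Nfkbiz, a nuclear IkappaB protein, 9.28-fold lower (528 and 338 counts). Fosb, Klf6 and Ier3 completed the group at -1.68, -1.17 and -1.14.

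The remaining members showed a mixed picture. Hspa8, a constitutive chaperone, was the highest kept member at 0.47, and Dusp1, a MAP kinase phosphatase, lay at -0.59 (5753 and 28876 counts). A further 14 members were counted in ING4-/- cells but lay under 3 times the background in WT. Over all 6985 genes of this kind, 6.79% were over 2-fold higher even if every WT read was taken as signal. Of the 14 members, 4 were: Egr2 (9 and 355 counts), Ier5 (33 and 665), Hspa1a (8 and 199) and Hspa1b (13 and 361), the last 2 near-identical copies. Gadd45b had 124 counts in WT and 0 in ING4-/- ST-HSCs, and the other 3 members were too low in both libraries.

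Against the other populations, the immediate-early ratios of ST-HSCs resembled those of MPPs. Over the 21 genes kept in all 3 pairs, the median was -1.14 in ST-HSCs, -0.93 in MPPs and -0.08 in LT-HSCs. A gene's ST-HSC ratio was lower than its LT-HSC ratio by a median difference of -0.92, and differed from its MPP ratio by 0.07. Mcl1 and Nfkbiz stood apart, at -2.08 and -3.21 in ST-HSCs against 0.43 and -1.61 in LT-HSCs and -0.67 and -1.66 in MPPs. The median over these genes stayed below 0 under all 16 other settings, from -1.22 to -0.42.

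**Figure D3:**
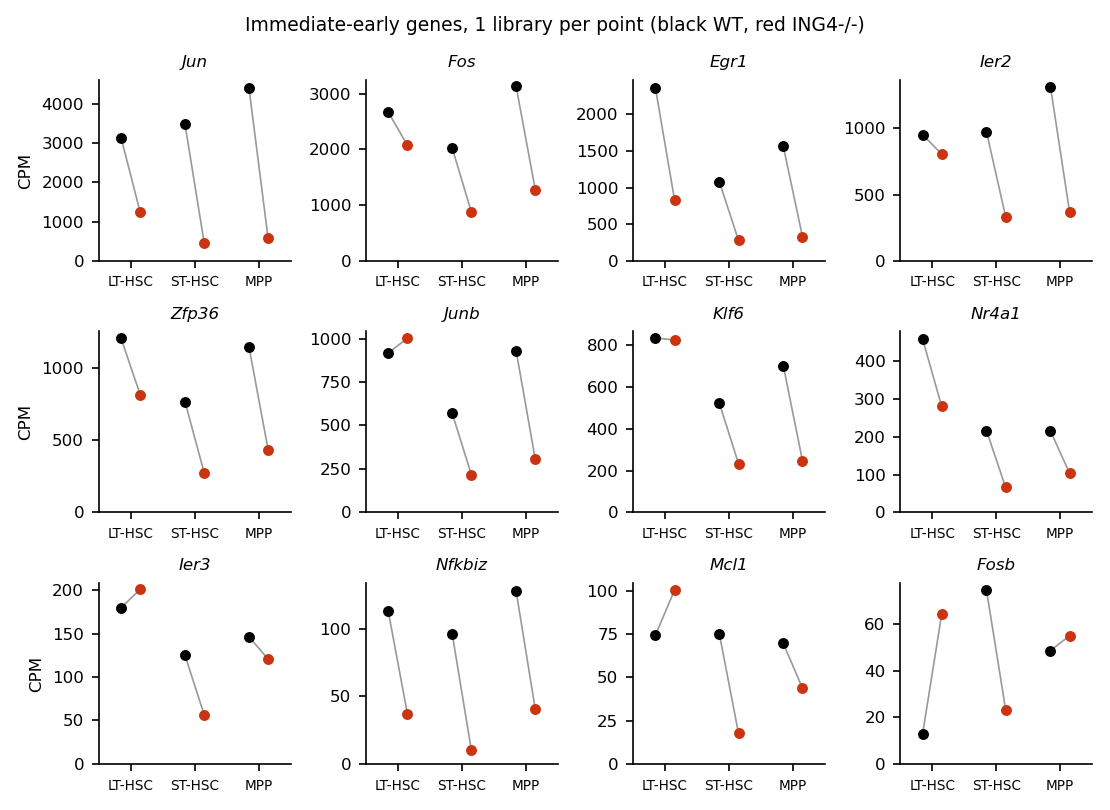
Level in CPM (linear axes from 0) of the 12 immediate-early genes that were at least 2-fold lower in ING4-/- ST-HSCs, in each of the 6 libraries. Black points are WT and red points ING4-/-, and each point is 1 library. In ST-HSCs every red point lies below its black point, whereas in LT-HSCs those of Junb, Ier3, Fosb and Mcl1 lie above theirs.

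The promoters of Fos, Junb and Dusp1 show what these genes share in sequence. Bases just upstream of the start (RefSeq, GRCm38.p6, written along the gene's strand) are given with each TGACG or its reverse complement CGTCA in capitals, the core of the element bound by CREB and ATF factors, where overlapping matches run together.
Fos, chr12:85473690-85473889, plus strand: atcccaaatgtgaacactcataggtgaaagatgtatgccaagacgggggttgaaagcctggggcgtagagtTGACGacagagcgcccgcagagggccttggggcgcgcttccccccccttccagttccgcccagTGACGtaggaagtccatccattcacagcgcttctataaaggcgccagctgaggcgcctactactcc
Junb, chr8:84978749-84978948, minus strand: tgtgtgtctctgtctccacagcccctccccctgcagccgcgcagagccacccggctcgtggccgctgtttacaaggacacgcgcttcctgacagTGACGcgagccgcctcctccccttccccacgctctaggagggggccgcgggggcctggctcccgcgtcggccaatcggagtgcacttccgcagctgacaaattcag
Dusp1, chr17:26508520-26508672, minus strand: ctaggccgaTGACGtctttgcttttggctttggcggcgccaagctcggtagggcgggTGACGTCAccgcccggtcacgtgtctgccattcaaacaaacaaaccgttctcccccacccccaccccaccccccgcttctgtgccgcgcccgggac
In the 250 bases upstream of the start, 15 of 32 immediate-early genes with a RefSeq promoter (46.9%) held TGACG on either strand, against 19.8% of 27025 genes. The match describes letters only. Fos and Junb, with it, were over 2-fold lower, and Dusp1, which held it on both strands in overlap, was 1.51-fold lower.

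Mitosis genes were strongly expressed in ST-HSCs of both genotypes, and the shares of higher and lower members were close to those of all kept genes. Their summed level was 13470 CPM in WT and 14130 CPM in ING4-/- ST-HSCs, against 5192 and 4739 CPM in LT-HSCs and 7717 and 9541 CPM in MPPs. Of 74 genes, 61 were kept, 4 (6.56%) were at least 2-fold higher and 14 (23.0%) at least 2-fold lower, and the median ratio was -0.18. All 74 had more than 3 counts in ING4-/- ST-HSCs, whereas 24 had 3 or fewer in ING4-/- LT-HSCs and 1 in ING4-/- MPPs.

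Mki67, whose protein Ki-67 coats mitotic chromosomes and marks cycling cells, was the lowest. It had 1225 counts in WT and 50 counts in ING4-/- ST-HSCs, a ratio of -7.17 ± 0.21 on an exon length of 10061 bases. In MPPs it had 780 and 337 counts (ratio -3.36), and in LT-HSCs 453 and 23 counts. Its WT ST-HSC count was 5.35 times the background. In contrast, Ccnb1, the mitotic cyclin B, was the highest of the list, with 815 and 12824 counts (167 and 390 CPM, ratio 1.22 ± 0.06). Aurka, a spindle kinase, was at 1.13 ± 0.09, H2afz, a histone variant, at 1.06 ± 0.03, and Melk at 1.03. Among the lower members, the condensin subunits Smc2 and Smc4 lay at -1.06 and -2.31, the spindle checkpoint kinase Ttk at -2.10 and the kinetochore scaffold Knl1 at -2.08.

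Mki67 and Ccnb1 differed in direction although both promoters carry CCAAT, letters typical of mitotic genes. Capitals mark CCAAT or its reverse complement ATTGG, the NF-Y site, and TTTGAA or TTCAAA, the cell cycle homology region bound by the DREAM complex. In the bases shown, TTTGAA is found for Mki67 only. For Ccnb1, 1 of the 2 matches in 250 bases lies outside the bases shown.
Mki67, chr7:135716380-135716579, minus strand: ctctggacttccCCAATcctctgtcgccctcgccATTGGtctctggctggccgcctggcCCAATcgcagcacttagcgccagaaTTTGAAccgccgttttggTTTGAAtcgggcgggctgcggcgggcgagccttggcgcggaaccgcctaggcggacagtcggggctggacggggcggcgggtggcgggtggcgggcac
Ccnb1, chr13:100786571-100786686, minus strand: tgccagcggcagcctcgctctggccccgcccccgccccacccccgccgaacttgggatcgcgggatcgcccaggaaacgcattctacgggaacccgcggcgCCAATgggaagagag
CCAAT was present upstream of 44 of 62 mitosis genes (71.0%), against 37.5% of 27025 genes, and TTTGAA upstream of 21 of 62 (33.9%), against 18.3%.

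DNA replication genes were close to WT. Of 50 genes, 44 were kept, 2 were at least 2-fold higher and 4 at least 2-fold lower, with a median of 0.08 in ST-HSCs, -0.32 in LT-HSCs and 0.13 in MPPs. Mcm6, a subunit of the replicative helicase, had 4174 and 35267 counts (946 and 1073 CPM, ratio 0.18 ± 0.02). Tk1 (thymidine kinase) and Rpa3 were higher at 1.41 and 1.38. Rfc1, Pole, Pold3 and Pola1, of the clamp loader and the polymerases, were lower at -1.87, -1.74, -1.46 and -1.41.

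Regulators of G1 and quiescence were measured less well, since 14 of 27 lay under 3 times the background in WT ST-HSCs and 11 were kept. Cdkn1c, which encodes the CDK inhibitor p57 of quiescent stem cells, had 28 counts in WT and 1361 in ING4-/- ST-HSCs. Even with all WT reads taken as signal it was 6.36-fold higher, beside 4.23-fold in LT-HSCs (47 and 1295 counts) and 3.52-fold in MPPs (31 and 638 counts). On the same scale Ccne2, a cyclin E that drives S-phase entry, was 3.40-fold higher (136 and 3533 counts) and Cdkn2c, which encodes p18, was 2.13-fold higher (59 and 961 counts). Ccne2 was 1.28-fold higher in MPPs and had 37 counts in ING4-/- LT-HSCs against 182 in WT. Among the kept members 0 were 2-fold higher and 1 was lower, Cdkn1a, which encodes p21, with 277 and 460 counts (ratio -1.90 ± 0.13). The G1 kinase Cdk4 (0.40) and the cyclins Ccnd2 (-0.27) and Ccnd3 (-0.09) lay within 2-fold, and the median was -0.09.

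Transcription factors of stem cells had a low median in ING4-/- ST-HSCs that depended on exon length. Of 40 genes, 21 were kept, 7 (33.3%) were at least 2-fold lower and 0 were 2-fold higher, with a median of -0.70 in ST-HSCs, -0.35 in LT-HSCs and -0.52 in MPPs. With the length trend removed the ST-HSC median was -0.02, since these genes had a median of 5580 exonic bases against 3189 for all kept genes. Gata2, a zinc-finger factor needed for stem cell survival, had 3798 and 10190 counts (855 and 310 CPM, ratio -1.46 ± 0.03, or -1.09 adjusted for length). Hoxa7 (-1.28), Ikzf1 (-1.04), Ikzf2 (-2.23), Egr1 and Nr4a1 were also among the lower members. After the length adjustment Ikzf1 was at -0.62. Lmo2 (0.16), Meis1 (-0.56) and Mecom (-0.44), further regulators of self-renewal, lay within 2-fold.

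Surface and niche genes of stem cells lay near the median of all genes, apart from 3 lower members. Of 38 genes, 23 were kept and 0 were 2-fold higher, with a median of -0.29 in ST-HSCs against 0.15 in LT-HSCs and -0.13 in MPPs. Slamf1, which encodes the sort marker CD150, had 755 counts (143 CPM) in WT and 888 counts (27.0 CPM) in ING4-/- ST-HSCs, a ratio of -2.40 ± 0.08. It was at -0.67 in LT-HSCs (986 and 3470 counts) and at -2.12 in MPPs (336 and 299 counts). Tgm2 and Emcn, both also endothelial, had ratios of -1.89 and -1.27.

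The other sort markers lay within 2-fold of WT in ST-HSCs. Kit, the stem cell factor receptor, had 3510 and 16974 counts (ratio -0.58 ± 0.03). Ly6a, which encodes Sca-1, had 311 and 2049 counts, a ratio of -0.08 ± 0.10 against 2.13 in LT-HSCs and 0.68 in MPPs. Cd34 had 2199 and 22601 counts (ratio 0.54 ± 0.03). Cd48, whose product was gated out, had 154 and 1077 counts (ratio 0.15 ± 0.15), between 0 counts in ING4-/- LT-HSCs and 4300 in ING4-/- MPPs. Ptprc, the pan-blood marker CD45, was lower, with 2067 and 3082 counts (ratio -2.03 ± 0.05), or -0.71 adjusted for its 18313 exonic bases.

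Among genes of the platelet and red cell lineages, the kept members had a median near WT, whereas members under the WT limit were often higher. Of 34 genes, 17 were kept, 2 (11.8%) were at least 2-fold higher and 1 was 2-fold lower, with a median of 0.05. Pf4, a platelet chemokine, had 450 counts (101 CPM) in WT and 12293 counts (374 CPM) in ING4-/- ST-HSCs, a ratio of 1.89 ± 0.07 beside 0.71 in LT-HSCs and 1.37 in MPPs. Rap1b, a small GTPase of integrin activation in platelets, had 410 and 19246 counts (ratio 2.79 ± 0.08, against 1.51 and 0.88). Tfrc, the transferrin receptor, was at -2.64 ± 0.10 (577 and 533 counts). A further 14 members lay under 3 times the background in WT. Of these, 7 were over 2-fold higher even with all WT reads as signal, beside 6.79% of all such genes. On the same scale 6 of 9 such members in LT-HSCs and 5 of 13 in MPPs were over 2-fold higher. In ST-HSCs Gp5, of the platelet von Willebrand factor receptor, was 8.01-fold higher on that scale (43 and 2632 counts). Its partner Gp1bb had 3 and 771 counts, and Klf1, the erythroid master regulator, was 3.30-fold higher (51 and 1287 counts). Hba-a1 (11 and 1812 counts), Hbb-bt (35 and 972), Slc4a1 (11 and 416) and Samd14 (22 and 460) were the others, of which the globins have near-identical copies.

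Genes of MPPs and of early myeloid and lymphoid cells were sparsely measured. Of 23 MPP and early progenitor genes, 11 were kept and 4 were at least 2-fold lower, with a median of -0.18 against 0.17 in LT-HSCs and 0.40 in MPPs. Flt3, a cytokine receptor of multipotent and lymphoid progenitors, had 474 and 991 counts in ST-HSCs (ratio -1.36 ± 0.10) and 1956 and 10829 in MPPs (0.00). Dntt, the lymphoid terminal transferase, was at -1.61 ± 0.19 (160 and 277 counts) in ST-HSCs and 1.74 in MPPs (190 and 2961 counts). Cd244a was the lowest at -4.12 ± 0.12 (652 and 235 counts). Of 30 myeloid genes, 9 were kept, with Nkg7 (1.36) and Elane (2.07) at least 2-fold higher and the receptors Csf2ra (-1.55) and Csf3r (-1.24) lower, and a median of 0.21. Of 28 lymphoid genes, 4 were kept, with Dntt lower and a median of -0.33.

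**Figure D4:**
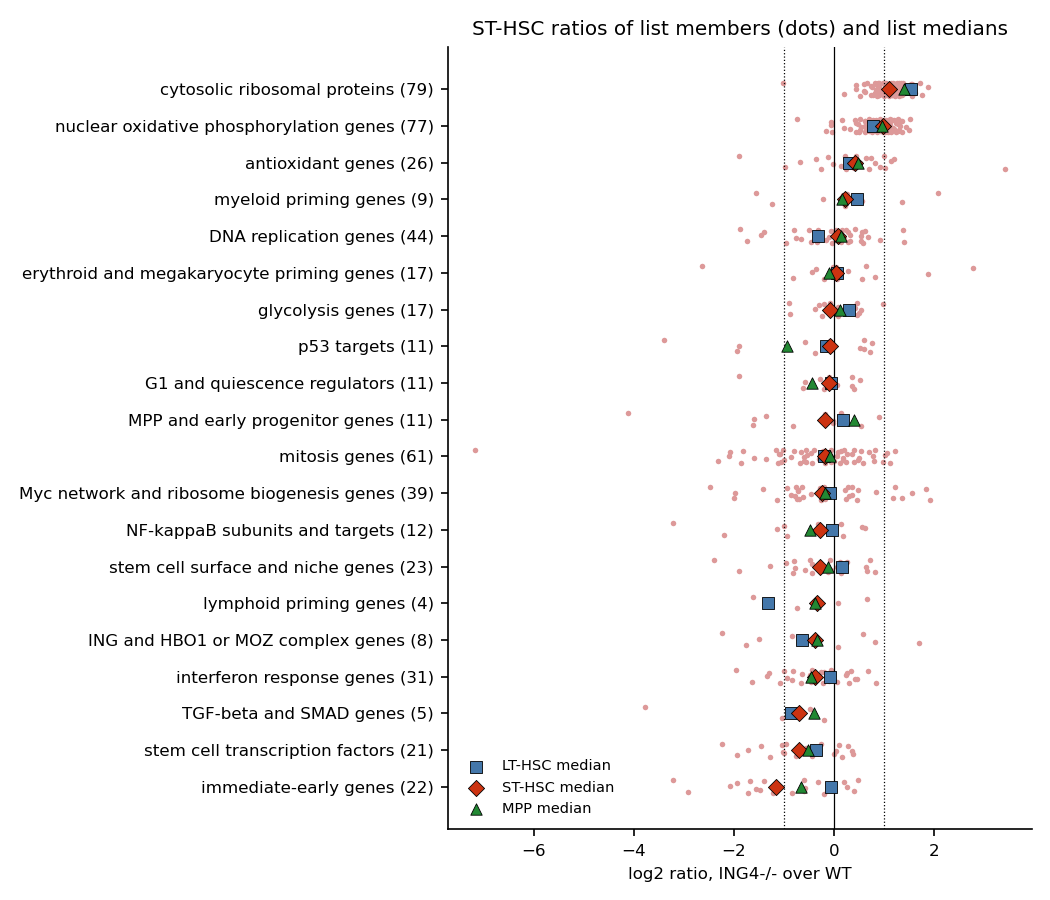
Log2 ratio of ING4-/- over WT in ST-HSCs for each kept member (pale dots) of 20 gene lists, with the list's median in ST-HSCs (red diamonds), LT-HSCs (blue squares) and MPPs (green triangles). Numbers in parentheses are members kept in ST-HSCs, and dotted lines mark 2-fold. Ribosomal protein (1.10) and oxidative phosphorylation (0.97) genes lie highest and immediate-early genes (-1.15) lowest.

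In the NF-kappaB and p53 pathways tied to ING4, the shares of lower genes were near that of all kept genes. Of 30 NF-kappaB subunits and targets, 12 were kept, 3 (25%) were lower (Nfkbiz, Ier3 and the kinase Chuk at -2.19) and 0 were higher, with a median of -0.28. Nfkb1 and Rela, the main subunits, were at -0.26 and 0.14. Of 30 p53 targets, 11 were kept and 3 (27.3%) were lower, with a median of -0.08. Over the 9 kept in all 3 pairs, the median was -0.38 in ST-HSCs, -0.05 in LT-HSCs and -1.09 in MPPs. Plk2, a stress-responsive kinase, had 484 and 304 counts (ratio -3.39 ± 0.11), and Ercc5, a repair nuclease, was at -1.94. Bax (0.60) and Mdm2 (0.52) lay within 2-fold, as did Trp53 itself (1254 and 9074 counts, ratio 0.03 ± 0.05).

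Myc itself was close to WT, with 2219 and 14370 counts (ratio -0.20 ± 0.03). Of 51 Myc network and ribosome biogenesis genes, 39 were kept, 6 were higher and 5 were lower, with a median of -0.23. Srm, which makes spermidine, led the higher ones at 1.91 ± 0.08 (435 and 11498 counts). Odc1 (1.84), of the same polyamine pathway, Nip7 (1.56), Rrp12 (1.37), Noc2l (1.23) and Utp15 (1.18), all for ribosome assembly, followed. Heatr1 (-2.47), Mga (-1.99), Ddx21 (-1.97), Max (-1.42) and Ddx18 (-1.13) were the lower ones.

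Of 33 antioxidant genes, 26 were kept, 4 (15.4%) were at least 2-fold higher and 1 (3.85%) was lower, with a median of 0.42 (LT-HSCs 0.31, MPPs 0.47). Gpx1, a glutathione peroxidase, had 7981 and 139071 counts (1849 and 4231 CPM, ratio 1.19 ± 0.02), and Txn1, or thioredoxin, had 1654 and 23520 counts (ratio 0.92 ± 0.04). The peroxiredoxins Prdx1 and Prdx4 were at 1.02 and 1.15, and Glrx5, a mitochondrial glutaredoxin for iron-sulfur clusters, was at 3.43 ± 0.23 (75 and 4468 counts). Srxn1, which repairs peroxiredoxins, was lower, with 212 and 300 counts (ratio -1.90 ± 0.16), against 0.37 in LT-HSCs and 0.27 in MPPs.

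Of 52 interferon response genes, 31 were kept and 5 (16.1%) were lower, Rsad2, Parp14, Usp18, Isg20 and Oasl2, which is below the share of all kept genes, with 0 higher and a median of -0.37. Rsad2, or viperin, was at -1.96 ± 0.13 in ST-HSCs, -0.12 in LT-HSCs and -0.68 in MPPs. Of 22 genes of ING proteins and their acetyltransferase or deacetylase complexes, only 8 were kept, too few to describe the group. Kat7, which encodes HBO1, had 1252 and 4852 counts (ratio -0.83 ± 0.05), Epc1, Kat5 and Sin3a were lower at -2.23, -1.76 and -1.49, and Sap30 was higher at 1.70, with a median of -0.37. Ing1, Ing2, Ing3 and Ing5 lay under 3 times the background in WT. Of 30 TGF-beta and SMAD genes, only 5 were kept and 2 were lower, the receptors Tgfbr1 (-3.77) and Tgfbr3 (-1.03), with a median of -0.70. The length-adjusted medians of these 3 lists were -0.27, -0.15 and -0.33.

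The genes with the highest ratios among 5306 kept protein-coding genes of at least 20 CPM in either library had short transcripts, from 742 to 2891 exonic bases for the highest 15. Glrx5 was followed by Nt5dc2 (2.85), Rap1b (2.79), Rab5if (2.76), Tmem160 (2.68), the co-chaperone Bag1 (2.46), the cytochrome oxidase assembly factor Coa6 (2.34) and the collagen-modifying Crtap (2.29). Tmed2 and Nenf, of the secretory route, Hnrnpab, which binds RNA, Eif3f, a translation initiation subunit, Pgp, Guca1a and Rnf187 completed the highest 15, at 2.17 to 2.26. Nt5dc2 had 112 and 4443 counts in ST-HSCs, with a ratio of 1.21 in MPPs, and only 84 counts in ING4-/- LT-HSCs. Hnrnpab had 557 and 18017 counts, and its ratio ran from 3.16 in LT-HSCs and 2.25 in ST-HSCs to 0.96 in MPPs.

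The lowest ratios belonged to a group of predicted genes. Gm10800, Gm10801, Gm10718, Gm21738 and Gm10722 took 8.99% of the WT ST-HSC counts and 0.00469% of the ING4-/- ST-HSC counts, and their ratios ran from -12.06 to -11.15. Gm10800 alone had 573258 and 1418 counts. They were as low in LT-HSCs and MPPs and had over 4.87% of the counts in each WT library, and their sequences occur in several copies, so the counts are uncertain. Of the named genes, Ugt1a6a (-8.34), Pnisr (-7.70), Neb (-7.69), Pla2g4c (-7.47), Mki67 (-7.17), Frk (-6.59), Tbc1d32 (-6.58), Prrg4 (-6.28), Eaf1 (-6.24) and Pank4 (-6.16) were the lowest. Each had 50 counts or fewer in ING4-/- ST-HSCs, so these ratios rest on few reads. Neb, of skeletal muscle, had 1916 and 47 counts.

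The ST-HSC pair was not the one that stood furthest apart. Over the 4778 genes kept in all 3 pairs, the ST-HSC ratio lay more than 1 log2 unit above both others for 84 genes (1.76%) and more than 1 below both for 201 (4.21%). The same counts were 304 (6.36%) and 406 (8.5%) for LT-HSCs and 144 (3.01%) and 115 (2.41%) for MPPs. The ST-HSC ratio lay between the other 2 for 1763 genes (36.9%). The median absolute difference between ratios was 0.39 for ST-HSCs against MPPs and 0.56 for ST-HSCs against LT-HSCs.

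Genes below both others in ST-HSCs had varied roles, from chromatin to mitochondria and lysosomes. Rnf40, an E3 ligase subunit for histone H2B, had 448 counts (74.5 CPM) in WT and 130 counts (3.94 CPM) in ING4-/- ST-HSCs, a ratio of -4.20 ± 0.16 against 0.48 in LT-HSCs and -0.78 in MPPs. Mfn1, which fuses mitochondria, was at -4.77 ± 0.16 against -2.03 and -1.36. Dnajc27 was furthest from the others, at -5.64 ± 0.24 against -0.62 and -0.83 (409 and 43 counts). Prrg4 was at -6.28 against -2.50 and -2.68, and Pnisr at -7.70 against -4.37 and -3.87. The lysosomal enzyme Naglu (-1.41), the adenosine receptor Adora2a (-1.76), the inner nuclear membrane protein Emd (-1.09) and the mitochondrial rRNA methylase Mrm3 (-2.06) were lower in ST-HSCs and had positive ratios in LT-HSCs and MPPs. Tnip3, a ubiquitin-binding protein of NF-kappaB signalling, was at -2.73 against -0.36 and 0.05.

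Genes above both others were led by Rrp12, a factor of small ribosomal subunit export. It had 295 counts (45.8 CPM) in WT and 3882 counts (118 CPM) in ING4-/- ST-HSCs, a ratio of 1.37 ± 0.13 against -1.31 in LT-HSCs and -1.34 in MPPs. Slc37a4, the glucose-6-phosphate transporter (1.69), Hsh2d, a lymphocyte adaptor (1.47), Nudt2, which cleaves dinucleoside polyphosphates (1.84), and Coasy, of coenzyme A synthesis (1.24), were at least 2-fold higher in ST-HSCs alone. Gna13 (0.61), Dus2 (0.46), Ttc4 (0.98), Tmem177 (0.86) and Xrcc3 (-0.26) lay within 2-fold in ST-HSCs and had negative ratios of -0.91 or lower in both other populations. The WT counts of Rrp12 and Slc37a4 were barely over the limit, at 3.00 and 3.03 times the background, and with all WT reads taken as signal they were 1.72-fold and 2.16-fold higher.

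**Figure D5:**
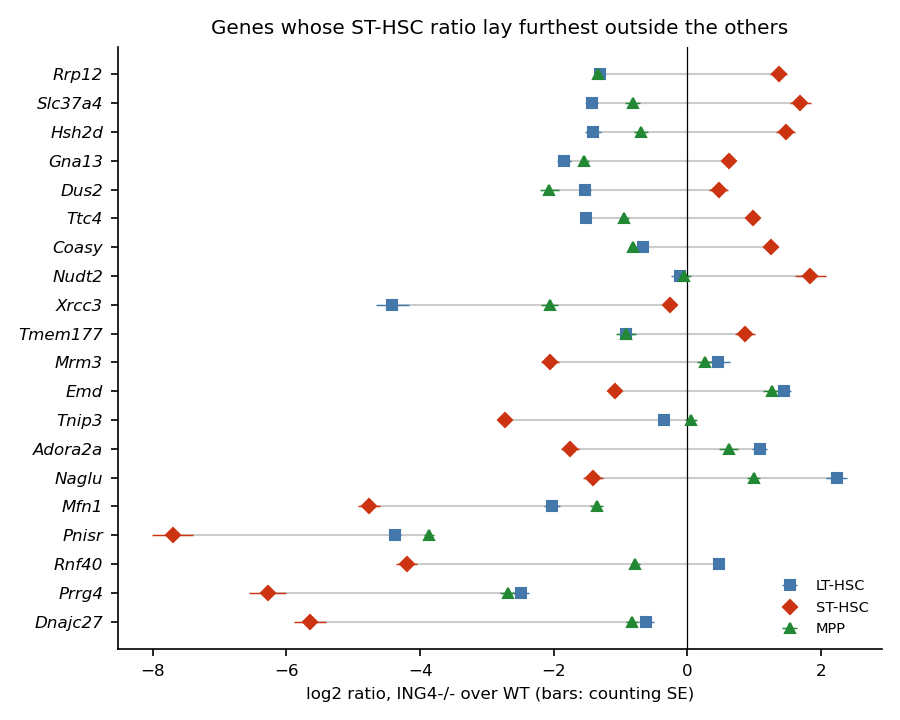
Log2 ratio of ING4-/- over WT in LT-HSCs (blue squares), ST-HSCs (red diamonds) and MPPs (green triangles) for the 10 genes furthest above and the 10 furthest below both other populations in ST-HSCs. Bars are counting SE of 1 library pair. Dnajc27 at the bottom (-5.64 in ST-HSCs) and Rrp12 at the top (1.37) are the most distant.

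Whether the genotype difference of ST-HSCs differed from that of the other populations was tested on the raw counts. The LT-HSC and MPP pairs served as the only measure of spread. On simulated counts of this design, the edgeR test below recovered 6 of 66 changes of 2 log2 units. It recovered 24 of 67 changes of 3 units and 37 of 67 of 4 units, so it could miss large differences. By edgeR's quasi-likelihood test 0 of 9673 genes passed after adjustment (0%), with 316 at an unadjusted p under 0.05 and a smallest adjusted p of 0.849. DESeq2 called 27 genes in the same design, 2 higher and 25 lower in ST-HSCs, but on simulated counts of this design it made more false calls than that, so these are not taken as differences. Of the lower ones, 23 had under 200 counts in ING4-/- ST-HSCs. The median exon length of the lower ones was 8451 bases. It was 3189 for all kept genes, a set filtered differently from the genes tested here. Of the 27, 4 were kept in all 3 pairs, and these were Pnisr, Pabpc1, Rnf40 and Dnajc27. Bicd1, a dynein adaptor, ranked first, with 799 and 36 counts in ST-HSCs, 921 and 1560 in LT-HSCs and 660 and 789 in MPPs (edgeR log2 difference -5.12 ± 0.95, adjusted p = 0.849). Pabpc1, the cytoplasmic poly(A)-binding protein, was the most abundant of the lower ones, named here after its values were seen. It had 2405 and 10982 counts in ST-HSCs, 1505 and 25051 in LT-HSCs and 1640 and 20021 in MPPs, a ratio of -0.66 against 1.48 and 1.16 (edgeR log2 difference -1.78 ± 0.38, adjusted p = 0.849).

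Some genes were counted in only 1 of the ING4-/- libraries. In ING4-/- ST-HSCs, 147 genes had at least 200 counts while both other ING4-/- libraries had 3 or fewer, and 127 had 3 or fewer while both others had at least 200. These numbers were 239 and 450 in LT-HSCs and 242 and 77 in MPPs. Elane, neutrophil elastase, had 1590 counts in ING4-/- ST-HSCs, 1 in LT-HSCs and 0 in MPPs, beside 70, 3 and 65 in the WT libraries. Serinc5 had 0 counts in ING4-/- ST-HSCs, 2705 in LT-HSCs and 1688 in MPPs, beside 158, 185 and 383 in WT. Both are named for these counts, outside the rule on named genes. The input of 1000 to 10000 sorted cells per library is given by the labels, and its part in this pattern was not tested.

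Marker genes of other cell types were mostly near the background in WT ST-HSCs. The WT count reached 3 times the background for 6 of 14 granulocyte, 1 of 14 monocyte, 1 of 14 B cell, 1 of 15 T and NK cell, 1 of 13 erythroid, 6 of 14 megakaryocyte, 3 of 15 endothelial and 5 of 14 mast cell markers, so in the WT sums below these cells and residual background cannot be told apart. After subtraction, the summed level of the marker list was 133 CPM in WT and 35.1 CPM in ING4-/- ST-HSCs for mature granulocytes. In the same order it was 200 and 42.3 for monocytes and macrophages, 142 and 85.1 for B cells, and 103 and 54.3 for T and NK cells. For endothelial and stromal cells it was 332 and 94.0, and for mast cells, basophils and eosinophils 174 and 126. The erythroid (197 and 266 CPM) and megakaryocyte and platelet (870 and 1226 CPM) lists were higher in ING4-/- ST-HSCs. In ING4-/- ST-HSCs, 3 or fewer counts were found for 6 of 14 granulocyte, 7 of 14 monocyte, 11 of 14 B cell, 11 of 15 T and NK cell, 8 of 15 endothelial and 9 of 14 mast cell markers, but only for 4 of 13 erythroid and 2 of 14 megakaryocyte markers. Cd3e, Itgam and Ly6g had 0 counts in ING4-/- ST-HSCs, and 193, 34 and 15 in WT against backgrounds of 92.8, 114 and 21.4. The part of other cells in the results above was not tested.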

How the data were processed

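RNA-seq counts of 6 libraries (WT and ING4-/- LT-HSCs, ST-HSCs and MPPs, 1 each from pooled marrow) were analysed. The authors deposited raw read counts per gene for each sample, with exonic length as a second column. The build was mm10 per the submitters' processing notes, and the aligner, counter and strand setting are not given in the sources used here. Symbols came from GENCODE M21 through the identifiers (49056 of 49315 matched) and promoters from RefSeq (GRCm38.p6).

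Totals ran from 7839326 to 39192588 counts, and intervals and errors cover counting only. The background of each library was the pooled count density per kb over 1429 receptor genes. Predicted background was subtracted, TMM factors (edgeR 4.0.16) were computed over the 4778 genes that passed in all 3 pairs, and log2 ratios used a prior count of 2. A gene was kept with 10 counts in both libraries and a WT count at least 3 times the background. No test is possible for 1 library against 1. The ST-HSC genotype difference was tested against that of LT-HSCs and MPPs with the quasi-likelihood test of edgeR, adjusted over all genes by Benjamini-Hochberg, on genes with 10 counts in every library, where 1 residual degree of freedom was left and DESeq2 1.42.0 was the alternative. "Length trend removed" means that a lowess fit of the ratio on log10 length was subtracted.

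Named genes were a preset group (Ing4, Cdkn1c, Txn1, Gpx1, Trp53, Cdkn1a, Mki67), the sort markers, the 15 highest and 15 lowest ratios, the 10 furthest above and below both other populations, in each list the 4 most abundant members and both extremes, and up to 10 genes per direction called in the test. Other genes, including list members past 2-fold and those named by a count alone, were added after their values were seen. The gene set, the lists and the rule were chosen with earlier results of these data known. Scripts were checked on simulated data. Alternatives covered subtraction, the multiple, minimum counts, scaling, prior count, length, coding genes and depth. Some list members are counted but not reported here by name.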

Additional observations from a re-analysis of the deposited data

Results flagged for a closer look

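Some genes had ST-HSC ratios at least 2-fold from WT in the direction opposite to both other populations, and 9 of the genes named above did so. Below WT in ST-HSCs and above it in the others were Naglu (-1.41 in ST-HSCs, 2.23 in LT-HSCs, 0.99 in MPPs), Adora2a (-1.76, 1.08, 0.62), Emd (-1.09, 1.45, 1.26) and Mrm3 (-2.06, 0.46, 0.26). Above WT in ST-HSCs and below it in the others were Nudt2 (1.84, -0.12, -0.06), Coasy (1.24, -0.66, -0.81), Hsh2d (1.47, -1.42, -0.69), Slc37a4 (1.69, -1.44, -0.82) and Rrp12 (1.37, -1.31, -1.34). With 1 library per genotype and population, the difference in sign was not tested for replicate spread, and none of these 9 genes passed the edgeR or DESeq2 test of the ST-HSC genotype difference. Over all 4778 genes kept in the 3 pairs, 33 were more than 1 log2 unit apart and opposite in sign in this way in ST-HSCs, beside 119 in LT-HSCs and 20 in MPPs.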

How the results depend on the processing

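The main counts were 497 genes higher and 1239 lower, 84 above and 201 below both other populations, and 6 of 20 lists with a positive median. Without background subtraction they became 1858, 3652, 463, 748 and 11. With a WT minimum of 2 times the background, 956 were higher, 239 above and 363 below; with 5 times, 263 were higher, 551 lower, 26 above and 72 below; with no multiple, 3465 were higher, 2527 lower, 810 above and 799 below, so that higher genes outnumbered lower ones. The median receptor density gave 157 above, and scaling by total 128 above. Against LT-HSCs alone (without the MPP libraries) 626 were above and 637 below, and against MPPs alone 370 and 577. DESeq2 called 27 genes where edgeR called 0. Thinning ING4-/- libraries to the WT totals left 505 higher and 1096 lower; thinning and the comparisons with 1 population were chosen after seeing the data. The cause of these shifts was not tested beyond what each filter does by construction. Of the list medians, 141 of 300 values under other settings moved by more than the median counting SE of their members, as did 164 of 815 ratios of named genes beyond their own SE, and no value past 2-fold changed sign. No paired analysis was possible because each group held 1 library; the 3 libraries of a genotype may share 1 pool of marrow, so pool and genotype cannot be told apart and the test did not model the pool. The WT background limits weakly expressed genes most: 6985 genes had 10 or more counts in ING4-/- ST-HSCs but did not reach the limit in WT. The reverse held for 3967 genes, of which only 585 were protein-coding.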
